A study of Mus musculus with 23 samples.

Results

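The 12 wild-type hippocampus libraries of a series of 23 are described here: how abundant each gene's RNA was, how much it differed between libraries, and which genes rose and fell together. A library was taken if its title marked it as WT; all 12 carry the genotype Ins2+/+, the tissue label hippocampus and the sex label female. The other samples are of the Ins2-/- genotype and were not used. Mouse strain, age, treatment and batch are not given in the sources used here, and the labels do not say that each library came from its own animal, so every spread below is that between these samples, part of which may be technical. RNA from dissected tissue was enriched for mRNA and sequenced from a stranded library kit.

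The hippocampus is the part of the brain known for forming memories of places and events. Granule cells of the dentate gyrus signal to pyramidal neurons of CA3, which in turn signal to CA1, and inhibitory interneurons, astrocytes, oligodendrocytes, microglia and vessels surround these neurons. It borders the ventricle, whose wall is lined by ciliated ependymal cells and whose choroid plexus secretes cerebrospinal fluid. In bulk tissue such as this, fewer cells of a type and less RNA per cell cannot be told apart.

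Library totals ran from 13792274 to 22520798 counts, with a mean of 16941198 ± 2731582 (SD, n = 12). Levels are given in CPM, the count of a gene per 1000000 counts of its library, which over several genes is a share of the counts. Levels of different genes are compared after division by exon length, as CPM per kb. A gene with 0 counts could have had up to 3, or 0.133 to 0.218 CPM depending on the library, a limit that covers counting error only. A mean of at least 1 CPM was reached by 14918 genes, and 13696 genes reached 1 CPM in every library. Over the 66 pairs of libraries the chi-square per degree of freedom ranged from 7.34 to 85.6, so none was counted as a library deposited more than once.

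Libraries 14 and 17 stood apart before any other result. Ttr, which encodes transthyretin, the carrier of thyroid hormone made in bulk by choroid plexus, had 296745 counts in library 17 and 43446 in library 14, and between 89 and 1008 counts in the other 10. In CPM this was 18051 in library 17, 2923 in library 14, and 5.36 to 46.4 elsewhere. A Ttr count above 10000 was the rule by which these 2 libraries were set apart, so the gap in Ttr is a description, and counts of list genes in the highest decile of spread are given over 12 libraries and over the other 10.

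The tissue label was checked against markers of its regions. Every one of the 9 dentate gyrus genes looked at had a mean of at least 5 CPM, among them Prox1, the granule cell transcription factor, with a lowest value of 106, a median of 146 and a highest value of 192 CPM. Of the CA1 genes 6 of 6 and of the CA3 genes 5 of 6 were above that level. The CA1 genes included Wfs1 at 64.1, 105 and 156 CPM and Fibcd1 at 88.4, 123 and 186 CPM (lowest, median and highest), and the CA3 genes included Grik4, a kainate receptor subunit, at 40.5, 67.8 and 90.2 CPM. Of 12 hypothalamic genes, mostly neuropeptides, 0 reached a mean of 5 CPM, and their summed level was 5.17 to 14.8 CPM. Genes of other neighbouring regions were partly present: 4 of 6 neocortex genes reached that level, with sums of 97.0 to 166 CPM, and 5 of 11 striatum genes (6 over the 10 libraries), with sums of 140.1 to 255 CPM. The thalamus and habenula list was less even: its 9 genes summed to 70.7 CPM in library 1, a median of 103 CPM, and 293 CPM in library 15.

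RNAs of the mitochondrial genome took a large share of the counts. The 13 mitochondrially encoded mRNAs together held 4.44 ± 0.256% of all counts (SD, n = 12), from 3.98% in library 5 to 5.01% in library 17. Counted singly and per kb, mt-Co1, a subunit of cytochrome c oxidase, had the largest level of the 13, 9588 ± 611 CPM per kb. mt-Co2, another subunit of that enzyme, had 5741 ± 658 and mt-Cytb, of respiratory complex III, 4927 ± 334 CPM per kb, and these overlapped in their spread. The large mitochondrial rRNA mt-Rnr2 stood at 4232 ± 441 CPM per kb. The lowest of the 13 mRNAs per kb was mt-Nd3 with a mean of 889 CPM per kb.

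Pseudogenes on chromosome 1 had levels of the same order. Gm10925 had 5177 ± 285 CPM, Gm28437 had 4929 ± 377 CPM and Gm28661 had 3089 ± 407 CPM. Their annotated transcripts are identical over 678, 783 and 681 bases to mt-Atp6, mt-Co3 and mt-Co2, so reads of the pseudogene and of the mitochondrial gene cannot be told apart and both levels are uncertain. The sum of mt-Co2 and Gm28661 varied less between libraries than either gene: mt-Co2 had a CV (SD divided by mean) of 11.5%, Gm28661 13.2%, and their sum of 7016 ± 314 CPM 4.47%. The other pairs summed to 6461 ± 361 CPM for mt-Atp6 with Gm10925 and 6452 ± 343 CPM for mt-Co3 with Gm28437. The sum with Gm10925 had a CV of 5.59%, below mt-Atp6 at 12.4% but not below Gm10925 at 5.50%. The sum with Gm28437 had 5.31%, below mt-Co3 at 11.4% and Gm28437 at 7.65%. Divided by the length of the mitochondrial gene, the sums were 10257 ± 459 CPM per kb for mt-Co2 with its copy, 9487 ± 530 for mt-Atp6 and 8229 ± 437 for mt-Co3. With the copies added mt-Co2 was thus above mt-Co1, and the order of the mitochondrial mRNAs is uncertain.

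Protein-coding genes took 94.7 ± 0.385% of counts, lincRNAs 1.02 ± 0.111%, unprocessed pseudogenes 1.497 ± 0.0975% and mRNAs of cytosolic ribosomal proteins 1.16 ± 0.107%. Because of Gm10925, Gm28437 and Gm28661, the split of counts between pseudogenes and mitochondrial mRNAs, and so the share of each class, is uncertain too. The 87 genes with a mean of at least 1000 CPM held 18.3% of the counts. Before division by length, 9 mitochondrial mRNAs but 0 ribosomal protein mRNAs were among the 100 genes with the largest share of counts. A class that differed more between libraries than these was rRNA, at 0.607 ± 0.279% of counts, from 0.241% in library 20 to 1.32% in library 10. Nearly all of it was CT010467.1, an annotated rRNA gene on chromosome 17, at 2405 CPM in library 20, 13174 CPM in library 10, and between these in the other 10 libraries.

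**Figure D1:**
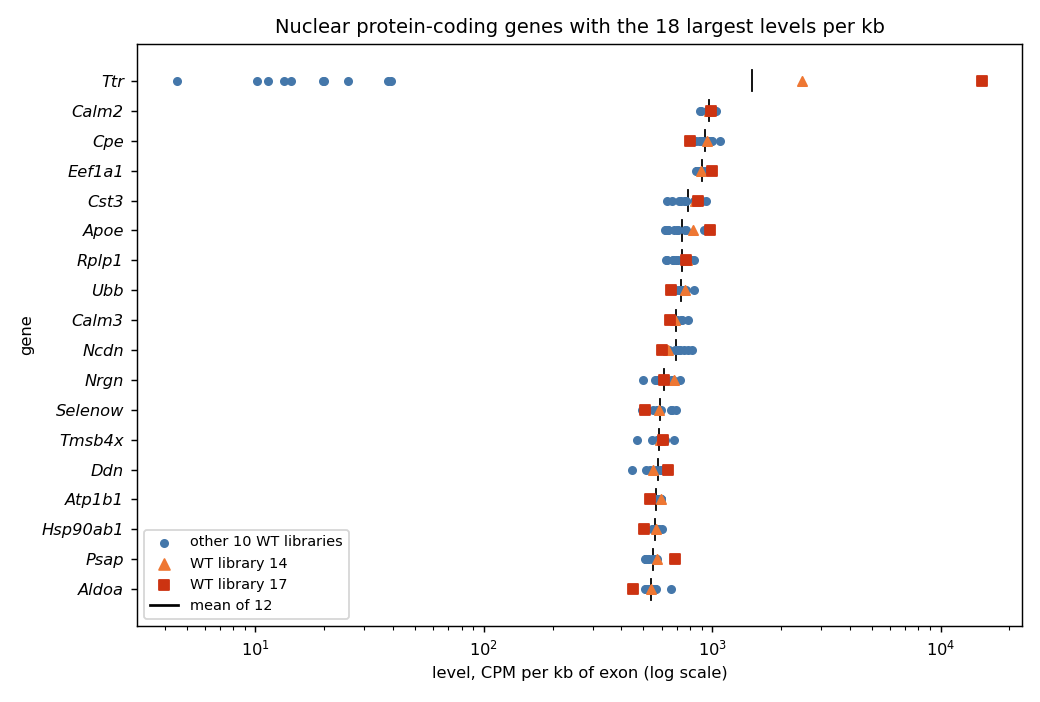
Level of the 18 nuclear protein-coding genes with the largest mean CPM per kb of exon (log scale) in each of the 12 libraries, with the mean as a black line. Ttr holds its place through libraries 14 and 17 alone, while each of the other genes stays within a narrow band.

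Among nuclear protein-coding genes Ttr ranked first per kb, with 1490 ± 4381 CPM per kb, a mean set by libraries 14 and 17. Next came Calm2, a calmodulin gene, with 967 ± 49.5 CPM per kb, Cpe, the carboxypeptidase that trims neuropeptides, with 928 ± 74.9, and Eef1a1, a translation elongation factor, with 902 ± 44.1 CPM per kb. Calm2, Cpe and Eef1a1 differed from one to the next by less than their SDs. Below them stood Apoe, the lipid carrier of astrocytes, with 740 ± 116 CPM per kb, Nrgn, a calmodulin-binding protein of excitatory neurons, with 616 ± 60.9, and Ddn, a dendritic protein, with 580 ± 59.3. Calm3, another calmodulin gene, had 695 ± 38.6 CPM per kb. Rplp1, the short mRNA of a cytosolic ribosomal protein, had 735 ± 74.1 CPM per kb, near the level of Apoe.

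Synapse genes stood above most genes in level. The 20 synaptic genes looked at had a median of 84.96 CPM per kb, beside 7.498 CPM per kb over 11855 genes with a mean of at least 5 CPM. They summed to 15146 CPM in library 17, a median of 18462 CPM, and 19629 CPM in library 20. Camk2a, the alpha subunit of a calcium-dependent kinase of excitatory synapses, had the largest mean among them at 504 CPM per kb, followed by Snap25, of the vesicle fusion machinery, at 277 and Syp, a vesicle membrane protein, at 243 CPM per kb. Of glial genes, Glul, the glutamine synthetase of astrocytes, reached 532 CPM per kb and the myelin gene Mbp 301 CPM per kb. Interneuron genes ranged from 2.66 CPM per kb for Reln to 189 CPM per kb for Sst, the neuropeptide somatostatin.

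The spread between libraries was small for most genes. Over the 11884 genes with a mean of at least 5 CPM, the median CV was 9.92%, with a middle range of 7.29% to 14.4%, while counting error alone gave a median CV of 4.17%. Without libraries 14 and 17 the median CV was 9.28% over 11772 genes. The excess CV used below is the CV with counting error removed, and its median was 8.64%. Low genes varied more: the median CV was 26.7% for genes of 1 to 5 CPM, 13.85% for 5 to 20 CPM, 8.71% for 20 to 100 CPM, 8.27% for 100 to 1000 CPM and 9.34% above 1000 CPM. The biological CV that edgeR fitted in common to the 14397 genes past its own filter on low counts was 17.3%, and 12.7% over 14468 genes without libraries 14 and 17.

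**Figure D2:**
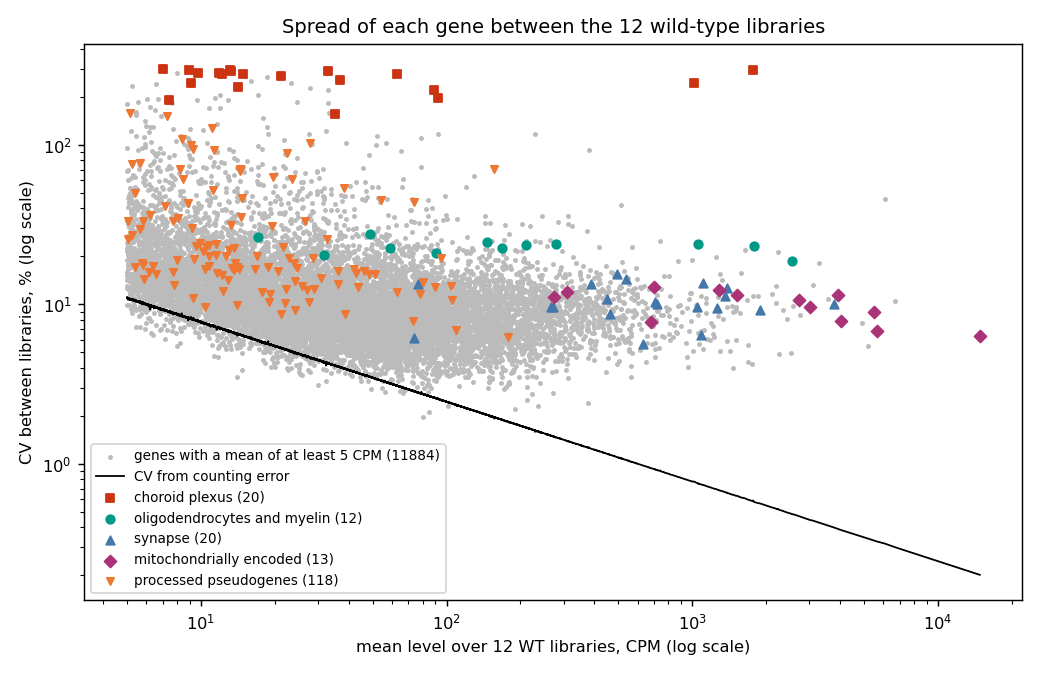
CV between the 12 libraries (%, log scale) against mean level (CPM, log scale) for each of the 11884 genes with a mean of at least 5 CPM, with the CV from counting error as a black line and 5 sets in colour. The 20 choroid plexus genes lie at the top, most genes lie above the counting line, and the 13 mitochondrial and 20 synapse genes lie below the 12 oligodendrocyte genes.

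Some genes were as steady as counting allows. At a mean of at least 20 CPM, 69 of 8006 genes, 0.862%, had a CV at or under that from counting error; without libraries 14 and 17 there were 140 of 7955, 1.76%, and 51 genes were in both sets. The steadiest of all 12 libraries by CV was Mbtps1, the site-1 protease that releases membrane-bound transcription factors, from 78.2 to 83.3 CPM with a CV of 1.97% against 2.73% from counting. Gpat4, an enzyme of glycerolipid synthesis, ranged from 82.4 to 87.7 CPM with a CV of 2.12%, and Eprs, a tRNA synthetase, from 97.5 to 105 CPM with 2.29%. Of genes above 100 CPM, Eif4b, a translation initiation factor, kept to 228 to 246 CPM, Ddx17, an RNA helicase, to 365 to 397 CPM and Rab7, a GTPase of late endosomes, to 256 to 284 CPM.

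The PCR reference genes differed among themselves. Of 16, 1 was in the lowest decile of all genes by excess CV (10% of genes by construction) and 1 in the highest decile (likewise 10%), and their median excess CV was 8.70% beside 8.64% for all genes. Over the 10 libraries there was again 1 in each, and the median was 8.94% beside 7.87%. Of those above the lowest decile, Ywhaz, a 14-3-3 protein, ran from 1155 to 1390 CPM with an excess CV of 5.07%. Gapdh, the glycolytic enzyme, had 5.74% and Actb, cytoskeletal actin, 7.28%. Larger values were those of Rpl13a, a ribosomal protein, with 13.96% and B2m, the light chain of MHC class I, which ran from 42.9 to 91.1 CPM with 21.1%.

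Over 12 libraries choroid plexus genes varied most. A CV above 50% was found for 270 of the 11884 genes, 2.27%, and for 91 of 11772 genes, 0.773%, without libraries 14 and 17; 84 genes were in both counts. Of the 20 genes with the largest excess CV, 15 were on the choroid plexus list. Of its 22 genes 20 were above 5 CPM over 12 libraries and all 20 in the highest decile, but most passed that level only through libraries 14 and 17: over the other 10 libraries 6 were above it, 5 of these in the highest decile. Enpp2, which makes the lipid signal lysophosphatidic acid, had a lowest value of 128, a median of 204 and a highest value of 8819 CPM. Kl, the coreceptor klotho, ran 17.3, 24.7 and 703 CPM, and Folr1, a folate receptor, 0.255, 1.19 and 118 CPM. The highest value of each was in library 17. The summed level of the 22 list genes was 31113 CPM in library 17, 5257 CPM in library 14 and 232 to 462 CPM in the other 10. Ttr, the gene that set the 2 libraries apart, made up much of this; the sum of the other 21 genes was 13061, 2334 and 209 to 416 CPM in the same order, so it too did not overlap. Ins2, the insulin gene that the other genotype of the series lacks, had 1.095 CPM in library 17 and 0 to 0.135 CPM in the other 11, at or below what a count of 0 allows.

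**Figure D3:**
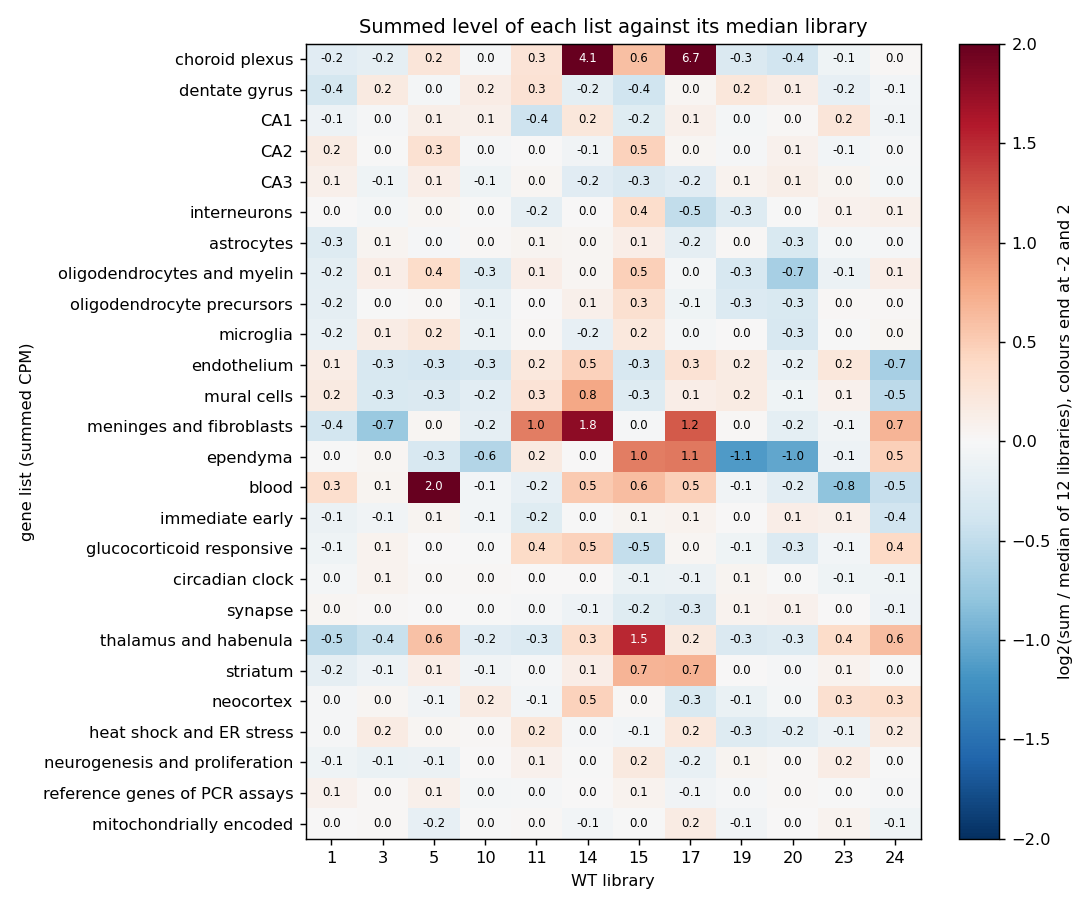
Log2 of each list's summed CPM in each library over that list's median of 12 libraries (colours end at 2 in either direction, numbers are the values). The choroid plexus row stands out in libraries 14 and 17, the blood row in library 5, the meninges and fibroblast row in library 14 and the thalamus and habenula row in library 15, while the clock and PCR reference rows are near 0 throughout.

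Without libraries 14 and 17 the very top of the ranking changed, and the decile less so. Of the 20 genes with the largest excess CV over 12 libraries 0 were among the 20 over 10, while 795 of the 1189 genes in the highest decile over 12 were also in that decile over 10. The limit of that decile was an excess CV of 21.1% over 12 libraries and 17.5% over 10. The share of all spread taken by the first principal component of the 1000 most variable genes fell from 49.1% to 25.1%. The gene with the largest excess CV was then AY036118, listed at 51.3 CPM in library 3 and at 0 in every other library. Ecel1, a neuronal peptidase, ran from 1.34 to 39.8 CPM. Zic1, a zinc finger transcription factor, had 144 CPM in library 15, 52.1 in library 24 and 45.1 in library 5, and 4.66 to 37.7 CPM in the other 9.

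Some genes were far higher in 1 library than in the rest. By a rule chosen after seeing the data, 49 of 11884 genes with a mean of at least 5 CPM, 0.412%, had a highest library at least 4 times the next. Library 17 was the highest for 46 of them, library 15 for 2 and library 19 for 1, and 33 of the 49 had a mean below 5 CPM over the 10 libraries without 14 and 17. Folr1, for one, had 118 CPM in library 17 and 17.02 CPM in library 14. Over those 10 libraries the rule held for 4 of 11772 genes, 0.034%: Ecel1 and Baiap3 in library 15, Rps13-ps1 in library 19 and AY036118 in library 3.

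Genes that co-varied were grouped among the 200 with the largest excess CV. Over 12 libraries 160 genes fell into 4 groups, the first of 134 genes, 133 of them highest in library 17. Of these 134, 20 were on the choroid plexus list, which had 20 genes among the 11884 with a mean of at least 5 CPM. Only 6 list genes reached that mean over the other 10 libraries. Most thus entered through libraries 14 and 17, and the count is a description only. Over 10 libraries 114 genes fell into 9 groups, and these describe the variation with libraries 14 and 17 set aside.

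The first of them, with 45 genes, was highest in library 15 for 44 genes. It held Zic1, Zic2, Zic4 and Zic5, the vesicular GABA transporter Slc32a1, the vesicular glutamate transporter of thalamus Slc17a6, and Penk, the precursor of enkephalins. Their summed level was 1785 CPM in library 15 and 443 to 908 CPM in the other 9 libraries of that set. Libraries 14 and 17, not used to make the group, had 864 and 1589 CPM. Much of the latter was Prlr, the prolactin receptor, a member that is also on the choroid plexus list, with 611 CPM in library 17, 82.5 in library 14 and 3.83 to 12.99 CPM in the other 10. Without Prlr the sum was 1772 CPM in library 15, 977 in library 17, 781 in library 14 and 438 to 899.8 CPM in the other 9. Library 15 also had the largest sum of the interneuron list, 1572 CPM beside a median of 1226 CPM. Library 15 stood apart in other lists too: it had the lowest sums of the 12 for dentate gyrus, 451 CPM, and CA3, 557 CPM, and the highest for astrocytes, 7775 CPM. Their part in the values of this library was not tested.

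A group of 22 genes had 4 members on the ependyma list, Foxj1, Ccdc153, Rarres2 and Rsph1. Foxj1 is the transcription factor that starts the program of motile cilia, and other members are the axonemal dyneins Dnah6, Dnah10, Dnah11 and Dnah12, and Hydin, of the central pair of the axoneme. All 22 were highest in library 15 among the 10, and their summed level was 320 CPM there, 73.1 in library 20 and 74.6 in library 19. Library 17 stood higher, at 405 CPM, while library 14 had 185 CPM. Foxj1 itself was 8.55, 17.4 and 35.2 CPM (lowest, median and highest). The ependyma list, with 4 genes above 5 CPM, all in the highest decile over 12 and over 10 libraries, summed to 20.4 CPM in library 19 and 93.5 CPM in library 17.

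A group of 12 genes had Col1a2, a fibroblast collagen, nearest its centre, the only member on the list of meninges and fibroblasts, and held Igf2, of the choroid plexus list. Ptgds, another member and the prostaglandin D synthase of leptomeninges, had 894 CPM in library 11, 1257 in library 14 and 508 in library 17, and 112 to 387 CPM in the other 9. Col1a2 and Igf2, a growth factor of meninges and choroid plexus, were also highest in library 11 among the 10, as were 11 of the 12. The summed level was 1404 CPM in library 11, 1915 in library 14, 1543 in library 17, and 278 to 738 CPM in the other 9. Of the list of meninges and fibroblasts 6 of 6 genes above 5 CPM were in the highest decile over 12 libraries, and 3 of 4 over 10, since 2 passed that level only through libraries 14 and 17. Smooth muscle genes, Acta2 and Myh11 with the endothelial gene Vwf, formed a separate group of 6.

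The blood group held the 4 haemoglobin genes Hba-a1, Hba-a2, Hbb-bs and Hbb-bt with the clock gene Dbp, all highest in library 5. Hbb-bs, an adult beta globin, had 249 CPM in library 5 and 28.6 to 98.1 CPM in the other 11. The transcripts of the alpha genes are 99.8% identical over 538 bases and those of the beta genes 94.9% over 586 bases, so the split within each pair is uncertain; the blood list summed to 561 CPM in library 5, a median of 139 and 79.4 CPM in library 23. Dbp ran from 21.1 to 67.9 CPM. Of the 16 clock genes it was 1 of 2 in the highest decile (also 2 over 10 libraries), and the median excess CV of the list was 11.7%.

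Activity and stress genes moved to differing extents. Of 23 immediate early genes above 5 CPM, 14 were in the highest decile, and 17 of 23 without libraries 14 and 17, where the decile again holds 10% of genes. The summed level of the list was between 1099 CPM in library 24 and 1568 CPM in library 20. Fos, a transcription factor induced by neuronal firing, had 65.3 CPM in library 15, 33.9 in library 5 and 15.4 to 27.9 CPM in the others. Arc, a synaptic protein induced likewise, ran 91.1, 177 and 277 CPM. Of the 9 glucocorticoid-responsive genes 7 were in the highest decile, likewise 7 over 10 libraries, with Plin4, a lipid droplet protein, from 3.25 to 43.1 CPM, yet Fkbp5, a chaperone of the glucocorticoid receptor, from 45.3 to 84.9 CPM was not.

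Fos, Dusp1, Btg2 and Ier2 were 4 of 8 genes that co-varied over 10 libraries, all highest in library 15. The DNA before the start of Dusp1 and of Btg2 is shown because it holds the full cAMP response element, TGACGTCA, in capitals, in RefSeq windows of the build GRCm38.p6, written along the gene's own strand. The Fos window was searched too and did not hold it, and Ier2 had no window in the search. The Dusp1 window, chr17:26508473-26508722 on the minus strand, has it 143 bases before the RefSeq start, and GENCODE M21 puts the outermost start of that gene 53656 bases away. The Btg2 window, chr1:134079156-134079405 on the minus strand, has it 166 bases before the RefSeq start, which is 35 bases from that in GENCODE M21.
Dusp1: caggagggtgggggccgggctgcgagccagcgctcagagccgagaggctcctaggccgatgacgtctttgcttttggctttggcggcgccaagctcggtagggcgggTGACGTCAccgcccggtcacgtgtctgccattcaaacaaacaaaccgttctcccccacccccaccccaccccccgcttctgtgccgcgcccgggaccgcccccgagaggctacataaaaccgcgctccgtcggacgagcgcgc
Btg2: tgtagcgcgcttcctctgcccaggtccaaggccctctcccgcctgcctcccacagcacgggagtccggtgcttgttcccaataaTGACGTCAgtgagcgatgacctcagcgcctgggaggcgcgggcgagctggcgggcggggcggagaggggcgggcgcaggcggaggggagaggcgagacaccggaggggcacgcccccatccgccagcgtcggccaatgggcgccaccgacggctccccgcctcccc
The 8 letters, searched on both strands of the 250 bases upstream, were in 2 of 18 immediate early windows, 11.1%, and in 434 of 27025 gene windows, 1.61%. The CArG box was in 0 of the 18 and in 1.395% of all. In 14 windows of the Foxj1 group the X-box was found in 1, that of Hydin, beside 1.34% of all. The cAMP response element was also in 1 of these 14, that of Dnah6, 7.14%. A match is a description of letters, and its absence says only that they are not in this window.

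Myelin genes varied to a moderate extent, and their co-variation as a set was not tested. All 12 oligodendrocyte genes were above 5 CPM, 9 were in the highest decile over 12 libraries and 12 of 12 over 10, and their median excess CV was 23.2%. Mobp, a protein of the compact myelin of the brain, had a lowest value of 608, a median of 1059 and a highest value of 1530 CPM. Summed, the list stood at 4052 CPM in library 20, a median of 6429 and 8972 CPM in library 15. Oligodendrocyte precursor genes had a median excess CV of 15.5% over 12 libraries with 1 of 7 in the highest decile, and 16.5% with 3 of 7 over 10.

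Of the other cell types, astrocyte genes had a median excess CV of 12.7% over 12 libraries with 2 of 12 in the highest decile, and 11.9% with 3 of 12 over 10. Microglia genes had 13.9% with 0 of 11, and 14.4% with 3 of 11 over 10. Endothelial genes had 27.0% with 8 of 10, and 22.3% with 9 of 10 over 10 libraries; their summed level ran from 95.2 CPM in library 24 to 208 CPM in library 14. Interneuron genes had 19.5% with 6 of 13, and 17.5% with 7 of 13 over 10. Of these Calb2, the calcium buffer calretinin, was the least even over 12, from 10.04 CPM in library 17 to 91.6 CPM in library 15.

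The lists of synapse and mitochondrial genes had no member in the highest decile, though their median spread was not below that of all genes. Synapse genes had a median excess CV of 10.01% with 0 of 20 in that decile, and 8.93% with 0 of 20 over 10 libraries, beside 8.64% and 7.87% for all genes. The mitochondrially encoded genes had 10.7% with 0 of 13, and 9.20% with 0 of 13 over 10.

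Of the hippocampal fields, CA3 genes had 13.1% with 0 of 5, and 9.92% with 0 of 5 over 10 libraries. Dentate gyrus genes had 18.05% with 2 of 9, and 6 of 9 over 10, at nearly the same median of 18.4%. Among them Lct, lactase, ran from 32.1 to 88.5 CPM and Dsp, a desmosome protein, from 43.0 to 95.6 CPM. Of the CA1 genes 2 of 6 were in the highest decile, and 4 of 6 over 10 libraries. Of the CA2 genes above 5 CPM it was 3 of 5 both ways, with Pcp4, a calmodulin regulator, at 78.2, 85.3 and 164 CPM (lowest, median and highest), the last in library 15.

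The remaining lists were small or mixed. Of the mural cell genes 4 of 5 were in the highest decile, likewise 4 of 5 over 10 libraries, with Acta2, smooth muscle actin, at 3.42, 6.06 and 23.6 CPM, the last in library 14. Of the striatum genes it was 4 of 5, and 5 of 6 over 10. Ppp1r1b, a phosphatase inhibitor downstream of dopamine, was at 145 CPM in library 17, 57.6 in library 14 and 26.8 to 55.2 CPM in the other 10, and its excess CV was 71.2% over 12 libraries and 22.6% over 10. Library 17 also had the largest choroid plexus sum, whose part in this value was not tested. For neocortex it was 1 of 4, and 2 of 4 over 10. For neurogenesis it was 1 of 5, Dcx at 8.27, 13.1 and 20.1 CPM, and 3 of 5 over 10.

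For heat shock and ER stress it was 2 of 9, Hspa8 and Hspa5, and 1 of 9 over 10 libraries. Hspa5, a chaperone of the endoplasmic reticulum, was at 655 CPM in library 17, 482 in library 14 and 255 to 406 CPM in the other 10, and its excess CV was 28.9% over 12 libraries and 14.3% over 10. Hspa8 has near-identical copies, and the sum with them had a CV of 6.48%.

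**Figure D4:**
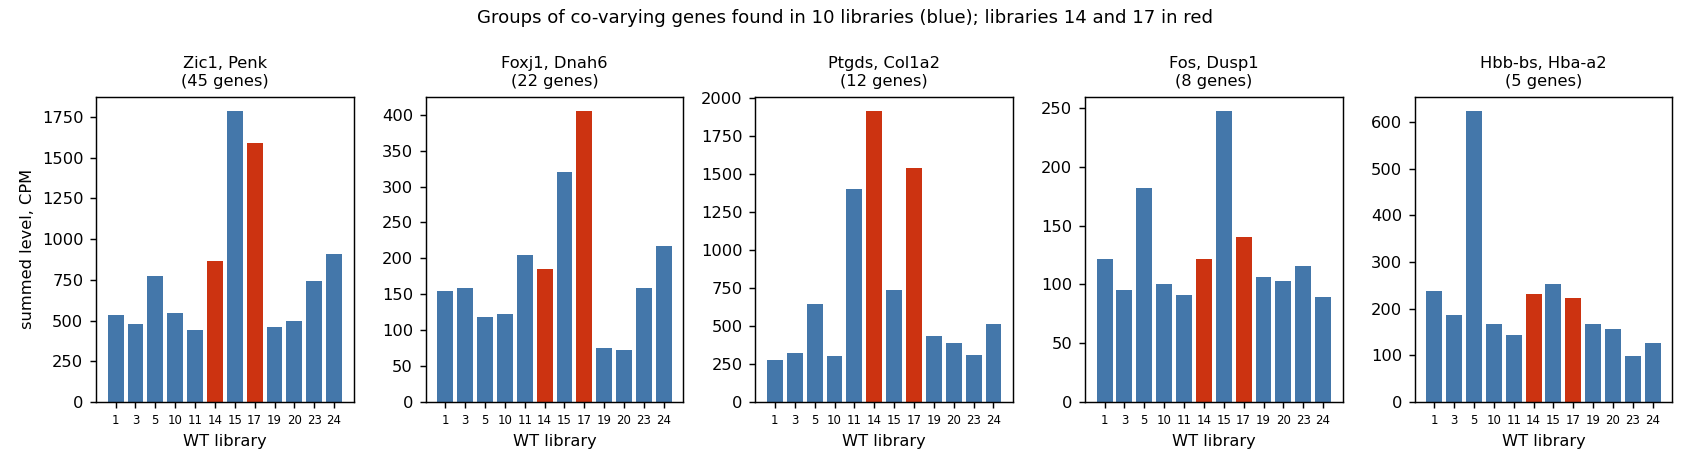
Summed CPM by library of 5 of the groups of co-varying genes found over 10 libraries (blue), with libraries 14 and 17 in red; each panel has its own axis. Library 15 leads the Zic1 and Fos groups, library 11 the Ptgds group among the blue bars, and library 5 the haemoglobin group.

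Pairs of marker genes were also compared across libraries, over 12, or over 10 for pairs with Ttr. Of 190 pairs of 20 markers, 0 passed a Benjamini-Hochberg adjusted permutation p of 0.05 (0.0%), 17 had an unadjusted p below 0.05, and 0 passed over 10 libraries, where 29 were below 0.05 unadjusted. The pair with the smallest p was Gad1, the GABA-making enzyme, with Dcx, of newborn neurons: r = 0.86 (permutation p = 0.00161, adjusted 0.221), rho = 0.66 (permutation p = 0.0239, adjusted 0.515). Without the 2 libraries farthest from the median of the pair's first gene, here 15 and 17, r was 0.46, so the larger r rests on these. Fos with Arc had r = 0.75 (permutation p = 0.00795, adjusted 0.221) and rho = 0.82 (permutation p = 0.00191, adjusted 0.213), and r = 0.90 without libraries 15 and 24, chosen likewise.

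Another pattern of spread was of genes in steps. For 22 of 11884 genes, 0.185%, the 12 values split into a low and a high level separated by at least 1.5 on the log2 scale, with 3 or more libraries on each side, a rule chosen after the values were seen. Over the 10 libraries there were 17 of 11772, 0.144%, of which 16 were in both counts. Of the 22 over 12 libraries, 14 were processed pseudogenes, copies of an mRNA written back into the genome. An annotated transcript of another gene at least 98% identical over at least 50% of their length was found for 19 of the 21 with a sequence, beside 580 of 11855 genes, 4.89%, in all; of the processed pseudogenes among these it was found for 117 of 118, 99.2%. Processed pseudogenes were often variable: 48 of 118 with a mean of at least 5 CPM, 40.7%, were in the highest decile over 12 libraries and 56 of 116, 48.3%, over 10, beside 10% of all genes.

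The sequences of 2 of them with their source genes show how few bases tell them apart. Each line is 120 bases of the transcript, 5′ to 3′, inside the coding part of the source gene, with differing bases in capitals. Gm10132 is a pseudogene of Rpl23a, a ribosomal protein gene on chromosome 11, and its window is chr14:77252010-77252129 (GRCm38, minus strand), differing at 1 base. Gm13456 is a pseudogene of Eef1a1 on chromosome 9, and its window is chr2:40556583-40556702 (GRCm38, plus strand), differing at 4 bases.
Gm10132: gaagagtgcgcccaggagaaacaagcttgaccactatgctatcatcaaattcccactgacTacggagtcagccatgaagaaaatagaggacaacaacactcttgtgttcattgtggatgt
Rpl23a: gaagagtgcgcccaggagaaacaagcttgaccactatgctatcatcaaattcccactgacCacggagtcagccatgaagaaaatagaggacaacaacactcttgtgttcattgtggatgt
Gm13456: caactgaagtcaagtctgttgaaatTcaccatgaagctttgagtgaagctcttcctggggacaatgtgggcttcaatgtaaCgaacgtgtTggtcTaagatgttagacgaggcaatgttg
Eef1a1: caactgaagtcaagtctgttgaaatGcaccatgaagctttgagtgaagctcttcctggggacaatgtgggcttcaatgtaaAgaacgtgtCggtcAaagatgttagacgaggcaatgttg
The base named in capitals is the only one that differs between Gm10132 and Rpl23a over 468 aligned bases, and 19 differ between Gm13456 and Eef1a1 over 1317. Gm10132 was listed at 0 in libraries 10, 14 and 24 and at 8.401 to 19.6 CPM in the other 9. Gm13456 had 53.1 to 64.8 CPM in libraries 14, 15, 20, 23 and 24 and 3.40 to 6.88 CPM in the other 7.

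The largest step was Gm26825, a lincRNA on chromosome 5 whose transcript is 99.6% identical over 1940 bases to the opposite strand of Hspa8, the constitutive heat shock chaperone. It overlaps Gm15459, an Hspa8 pseudogene on the other strand. Gm26825 had 467 to 596 CPM in libraries 14, 15, 19, 20 and 23 and 6.71 to 19.9 CPM in the other 7. Hspa8 had 1122 to 1350 CPM in those 5 libraries and 1730 to 2104 CPM in the other 7, so both genes fell into non-overlapping groups, in opposite directions. The sum of Hspa8, Gm26825 and Gm15459 was 2022 ± 131 CPM with a CV of 6.48%, beside 22.02% for Hspa8 by itself.

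**Figure D5:**
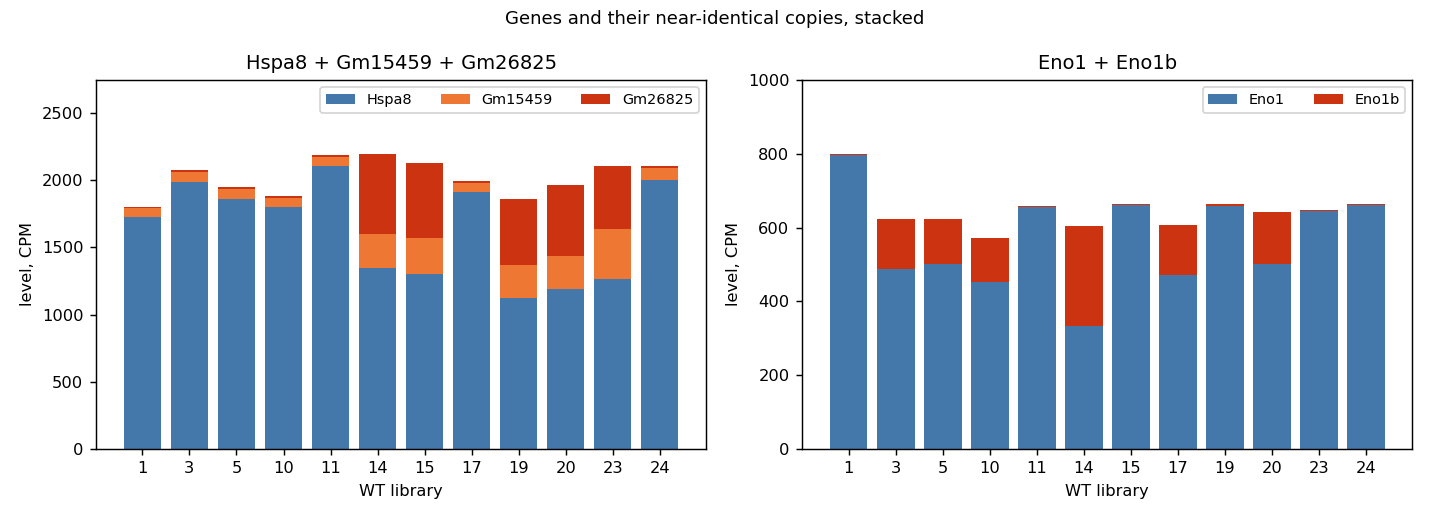
Level (CPM) of Hspa8 with Gm15459 and Gm26825 (left) and of Eno1 with Eno1b (right), stacked, in each library. The parts trade places from library to library while the stacks stay between 1800 and 2200 CPM on the left and 571 and 801 CPM on the right.

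Eno1, the glycolytic enolase, and Eno1b, 99.5% identical to it over 1652 bases, did likewise. Eno1b had 119 to 270 CPM in libraries 3, 5, 10, 14, 17 and 20 and 2.54 to 6.69 CPM in the other 6, where Eno1 was between 645 and 798 CPM. In the first 6 Eno1 was between 335 and 501 CPM. Eno1 had a CV of 22.8% and the sum of both 8.73%. Of the 19 step-like genes with a near-identical partner, the sum of the gene and its most alike protein-coding gene had a lower CV than that partner for 14, with medians of 10.6% for the sums, 17.6% for the partners and 94.2% for the step-like genes. Tuba1c, an alpha tubulin gene, and the pseudogene Gm14150, both most like Tuba1b, were high in the same 5 libraries, 10, 11, 17, 20 and 24. Rps13-ps1, high in library 19 at 42.4 CPM beside 2.31 to 5.27 elsewhere, went with the lowest value of its source Rps13, 50.0 CPM. The levels of genes in such pairs are therefore uncertain singly.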

How the data were processed

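RNA of hippocampus from Ins2+/+ female mice was sequenced in 12 mRNA libraries. Per the submitters' processing notes STAR, bcl2fastq and mm10 were used; the counting program, its annotation and its use of strand are not given in the sources used here. The authors deposited expected counts per gene, of which 24.6% to 27.2% of the non-zero values in a WT library carry decimals, so reads of near-identical, overlapping or antisense genes can be split between them. Columns were matched to samples by library name, with 0 unmatched.

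Of 45706 gene identifiers, 45143 (98.8%) were named and placed by GENCODE M21 (GRCm38, the same as mm10). CPM used column totals. CV is SD over mean, and counting error was taken as Poisson. Genes entered at a mean of 5 CPM, or 20 CPM for the steadiest. Named genes were the 20 largest by CPM, the 10 largest by CPM per kb, the 20 largest and 20 smallest by excess CV, over 12 and 10 libraries, all list genes, and up to 6 near the centre of each co-varying group; any other gene named was picked with its values in view. The members and the 27 gene lists (300 of 302 entries matched; Nov and Cyr61 did not) were chosen with earlier results of these data known.

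Groups were made by clustering log2(CPM + 0.5) of the 200 genes with the largest excess CV at a correlation distance of 0.3, with at least 5 genes. Pairs used Pearson's r and Spearman's rho with 100000 permutations, two-sided, and Benjamini-Hochberg adjustment over 190 pairs. Counts were rounded for edgeR 4.0.16 (common dispersion, TMM) and DESeq2 1.42.0 (size factors) in R 4.3.3; the rest used Python 3.11.15, numpy 2.4.6, scipy 1.17.1 and pandas 2.3.3. Near-identical transcripts were searched with blastn 2.17.0. In simulated data some genes were given a CV of 50%, and 155 of these were among the 11861 genes with a mean of at least 5 CPM. Of these 155, 100% were recovered, at a median excess CV of 48.2%. Raised genes below that mean were not counted. TMM and DESeq2 scaling shifted a library by -0.06 to 0.03 on the log2 scale. The rules for steps, near-identical transcripts and motifs were chosen after seeing the data.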

Additional observations from a re-analysis of the deposited data

How the results depend on the processing

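Class shares moved little without libraries 14 and 17, and the spread moved little under TMM or DESeq2 scaling. Several measures of spread moved with the gene filter or without those libraries. The count of genes with a CV above 50%, 270 in the main setting, was 91 without libraries 14 and 17, 729 at a mean of at least 1 CPM, 69 at 20 CPM and 11567 with no filter. Leaving out 1 library at a time, added after seeing the data, gave 127 to 284; the lowest was without library 17. The median CV was 11.6% at 1 CPM, 8.61% at 20 CPM and 32.7% with no filter, and 9.27% to 10.1% leaving out 1 library. The common biological CV was 12.7% without libraries 14 and 17 and 21.6% with no filter; leaving out 1 library gave 13.5% to 17.8%, the lowest without library 17. Genes with at least 1 count in some library numbered 27626, beside 14918 with a mean of 1 CPM. The highest decile by excess CV, taken here as 1188 genes, shared 67.0% of them with that over 10 libraries, 67.7% with a ranking by median absolute deviation, and 91.9% to 97.5% with the edgeR dispersion, log2 SD and TMM rankings. The number of marker pairs called stayed at 0 with Spearman's rho, TMM and a pseudocount of 5. No paired analysis was possible because WT libraries share no replicate number with another group.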

Other observations

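Gm29216, an unprocessed pseudogene on chromosome 1, was low in a single library, chosen after its values were seen, at 236 CPM in library 23 and 578 to 935 CPM in the other 11.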
